A study of Rattus norvegicus with 8 samples.

Results

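The circadian clock genes of the rat ovary were followed here through 10 genes chosen by name: Arntl (also called Bmal1), Clock, Per1, Per2, Per3, Cry1, Cry2, Nr1d1, Nr1d2 and Dbp. They are 10 of the 26204 gene names on the arrays and were measured by 16 of 30367 probes. Arntl and Clock each had 2 probes, Per3 and Dbp had 3 each, and the other 6 genes had 1. RNA came from whole ovaries of immature female rats, with 4 arrays for rats given PMSG and 4 for controls, as labelled. Pregnant mare serum gonadotropin (PMSG) acts mainly like follicle-stimulating hormone and is used to start follicle growth. Rats of 26 days received a dose of 50 IU PMSG in 0.2 ml of buffered albumin under the skin, or the buffer only, and were 28 days old when their ovaries were collected 48 h after that. Strain and the hour of day at which ovaries were collected are not given in the sources used here. Nothing in the labels says whether the arrays of a group came from separate animals or from pools, so p-values measure the spread between these samples, which may be technical.

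The clock is a transcription feedback loop that runs with a period of about a day in most cells. Arntl and Clock proteins form a dimer that binds E-box sequences and switches on the Per, Cry, Nr1d1, Nr1d2 and Dbp genes. Per and Cry proteins then inhibit that dimer, and the Nr1d1 and Nr1d2 nuclear receptors (REV-ERB alpha and beta) repress Arntl through RORE sequences, at which the ROR receptors activate it. In the ovary, clock genes cycle in granulosa, theca and luteal cells, and the loop is known to respond to gonadotropins. Because these transcripts vary over the day, a level from 1 collection time is a single point of that cycle.

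Arntl, Per2 and Nr1d1 are shown by sequence first, since their promoter windows held letters of the motifs through which the loop is known to act. A window ran from 250 bases before to 50 bases after a start site in RefSeq (GRCr8). Windows were found for 9 of the 10 genes, with Cry1 missing. Motifs were searched on both strands as exact letters: the E-box CACGTG, the E-prime box CACGTT, the D-box TTATGTAA or TTACGTAA, the RORE core TAGGTCA or TGGGTCA, and the cyclic AMP response element TGACGTCA. The stretches below lie before the start site and read 5′ to 3′ on the gene's strand, with matches in capitals.
Arntl promoter, chr1:176766228-176766327, + strand: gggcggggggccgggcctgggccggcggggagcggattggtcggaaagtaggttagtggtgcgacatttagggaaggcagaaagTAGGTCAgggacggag
Per2 promoter, chr9:99496994-99497243, - strand: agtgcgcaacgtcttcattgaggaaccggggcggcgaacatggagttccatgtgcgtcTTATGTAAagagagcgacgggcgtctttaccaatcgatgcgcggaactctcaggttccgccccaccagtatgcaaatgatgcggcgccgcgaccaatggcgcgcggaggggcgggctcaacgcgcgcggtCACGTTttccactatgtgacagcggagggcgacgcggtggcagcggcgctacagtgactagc
Nr1d1 promoter, chr10:84229555-84229704, - strand: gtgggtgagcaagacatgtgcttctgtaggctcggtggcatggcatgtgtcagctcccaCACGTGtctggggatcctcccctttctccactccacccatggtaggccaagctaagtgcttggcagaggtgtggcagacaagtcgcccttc

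In Arntl the RORE core began 16 bases before the start. Per2 held a D-box 192 bases and an E-prime box 62 bases before the start. The E-box of Nr1d1 began 191 bases before the downstream of its 2 start sites, the one shown. An E-prime box lay 174 bases before the other, which is upstream on the - strand. Cry2 held an E-prime box 212 bases before the start. No match was found in the windows of Clock, Per1, Per3, Nr1d2 or Dbp, which says only that these letters are not in those windows. Of all 33469 promoter windows, 6.42% held the E-box, 4.83% the E-prime box, 1.01% the D-box, 6.60% the RORE core and 1.83% the cyclic AMP response element. A match describes the sequence and is not evidence of binding.

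All 8 arrays lay on 1 slide with 1 scan date. Each array had 80.8% to 84.6% of probes well above background, no saturated spots, and a 75th percentile of processed signal between 769 and 1103. The number of arrays limits the precision. Levels are given as the log2 of the processed signal minus that array's 75th percentile, so 0 is the signal that 75% of probes lie below. Directions below follow the labels only, since known targets of gonadotropin did not move the usual way: Star, Cyp11a1 and Lhcgr were lower by 2.75, 3.36 and 1.93 log2 units, and Amh was higher by 3.03, in the arrays labelled PMSG. Star, the cholesterol carrier of steroid synthesis, read 4.75, 4.68, 4.80 and 4.92 in control arrays 1 to 4 and 1.92, 3.81, 1.42 and 0.99 in PMSG arrays 1 to 4. Its dimmer probe was lower by 2.05, at 2.48, 1.99, 2.30 and 1.62 in those PMSG arrays, and did not show the high value of array 2.

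Among the clock genes, Dbp, Nr1d2 and 1 probe of Per3 were higher and Arntl was lower in the arrays labelled PMSG, by 1.51-fold to 1.80-fold for the probe of each with the largest difference. Clock, Per1, Per2, Cry1, Cry2 and Nr1d1 did not pass the test. All 16 probes were well above background on every array and entered limma's moderated test over 25303 probes, with Benjamini-Hochberg adjustment over all of them and a threshold of 0.05. Of the 16 probes, 7 passed, beside 34.2% of all tested probes. Higher in the arrays labelled PMSG were 5, beside 17.6%, and lower were 2, beside 16.6%. The groups did not overlap for 7 of the 16, beside 36.6% of all tested probes. By the brightest probe of each gene, 3 of 10 passed. With so few probes, several of them to 1 gene, nothing particular to the clock genes is read from these counts. None of the 7 changed by 2-fold or more, whereas 11.8% of all tested probes were called at that size. An unadjusted limma p under 0.05 was reached by 9 of the 16, beside 11475 of all 25303 tested probes. The median difference over the 16 probes was 0.38 log2 units, beside 0.11 over all tested probes, and the median absolute difference was 0.54 beside 0.39. With each array centred on its median instead, the median over all tested probes moved to -0.05, and 2 clock probes were called higher and 3 lower. In that setting 8448 of 25303 tested probes were called, 34.5% of them higher, beside 51.4% of those called in the main setting. Leaving out control array 4 or PMSG array 1 left 4 clock probes called, beside 6552 and 7120 of 25303 tested probes, where 8658 were called with all arrays. In whole ovary, fewer cells of a type and less RNA per cell cannot be told apart.

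**Figure D1:**
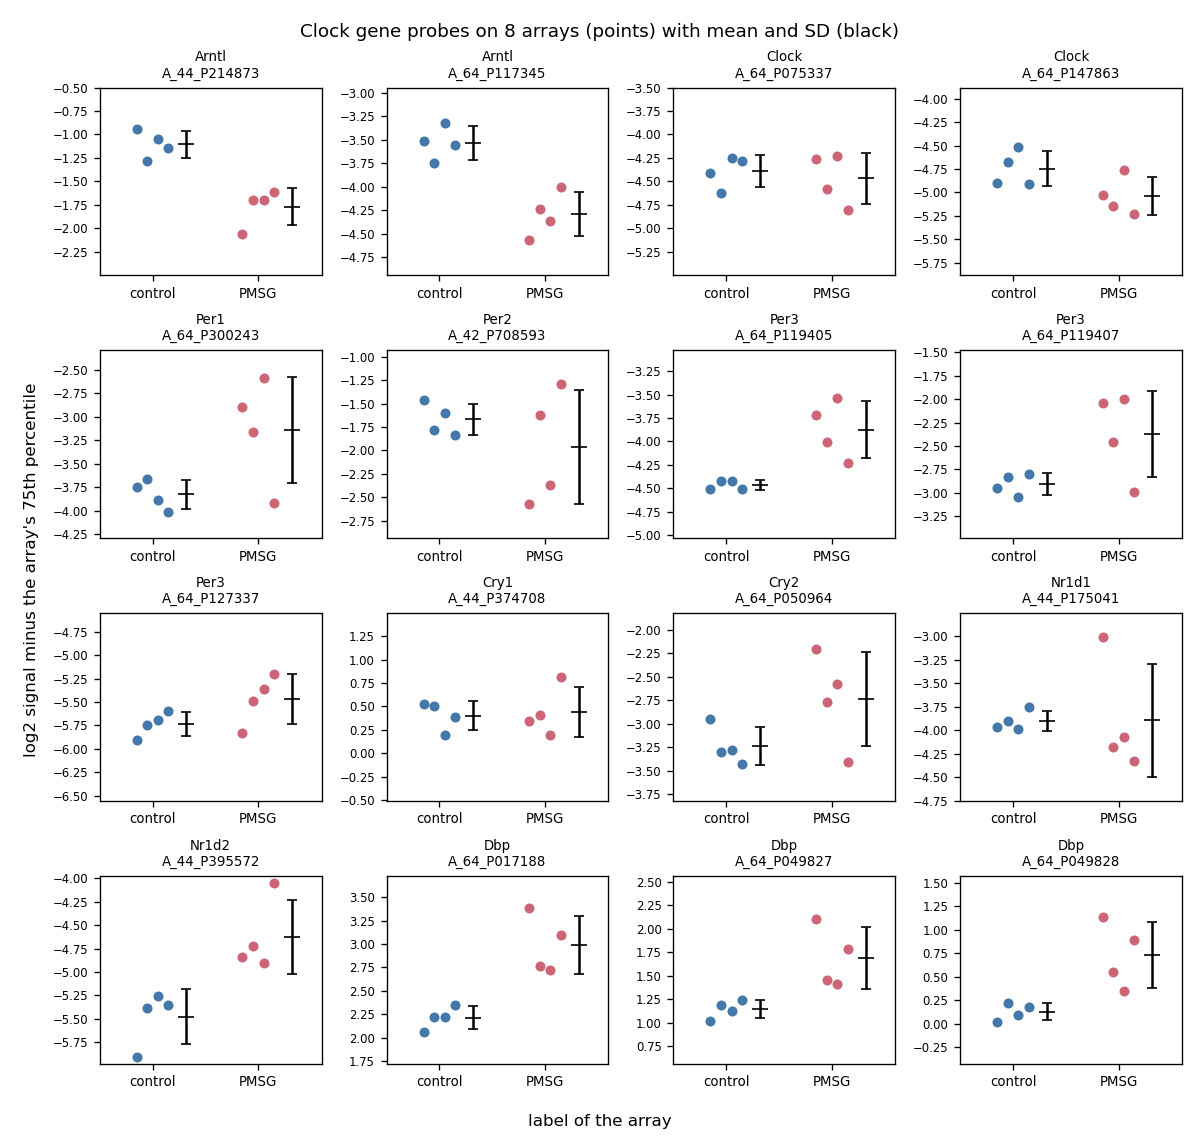
Log2 signal minus the array's 75th percentile for each clock gene probe on each of the 8 arrays, 1 panel per probe, with the mean of each label; every panel spans 2 log2 units. Both Arntl probes sit lower, and the 3 Dbp probes higher, on all 4 arrays labelled PMSG than on any labelled control, whereas Per1, Per2 and Nr1d1 are wide among the arrays labelled PMSG.

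Arntl, the DNA-binding partner of Clock and the activating arm of the loop, was lower in the arrays labelled PMSG with both of its probes. The brighter probe (A_44_P214873; rn4 chr1:171161969-171162028, + strand) read -0.94, -1.28, -1.05 and -1.15 in control arrays 1 to 4 and -2.06, -1.70, -1.70 and -1.61 in PMSG arrays 1 to 4. Every PMSG-labelled array lay under every control array. The means were -1.10 ± 0.15 and -1.77 ± 0.20 (SD, n = 4 each), and the difference was -0.67 (SE 0.13; limma adjusted p = 0.00536), or 1.59-fold. The dimmer probe (A_64_P117345; rn4 chr1:171154767-171154826, + strand) read -3.51, -3.75, -3.32 and -3.56 against -4.57, -4.23, -4.37 and -4.01, again without overlap. Its difference was -0.76 (SE 0.15; limma adjusted p = 0.00514), or 1.69-fold. With normexp background correction it was -0.35 (limma adjusted p = 0.0214), smaller in size than the -0.56 of the brighter probe. The sequence of the dimmer probe is shown.
Arntl A_64_P117345: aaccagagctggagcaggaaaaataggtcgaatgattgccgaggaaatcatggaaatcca

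Clock, a histone acetyltransferase and the partner of Arntl, had 2 probes and neither passed. Its brighter probe (A_64_P075337) read -4.41, -4.62, -4.25 and -4.28 in control arrays and -4.26, -4.58, -4.23 and -4.81 in arrays labelled PMSG. These ranges overlapped, and the difference was -0.08 (95% interval -0.44 to 0.29; limma adjusted p = 0.720). With the other probe (A_64_P147863) the values were -4.89, -4.67, -4.52 and -4.91 against -5.02, -5.15, -4.76 and -5.23. That difference was -0.29 (95% interval -0.62 to 0.03; limma adjusted p = 0.142). Under quantile normalization both Clock probes were called lower, at -0.31 and -0.56 (limma adjusted p = 0.0358 and 0.00988), and with median centring the second was, at -0.46 (limma adjusted p = 0.0190).

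The Per genes encode the inhibitors that accumulate and feed back on Arntl and Clock, and they did not move as one. Per1, which is also an early target of cyclic AMP and glucocorticoid signalling, read -3.75, -3.66, -3.89 and -4.01 in control arrays and -2.89, -3.16, -2.59 and -3.92 in arrays labelled PMSG. Arrays 1 to 3 labelled PMSG were above every control array and array 4 was among them. The difference of 0.69 (SE 0.26; 95% interval 0.08 to 1.29) had a limma adjusted p of 0.0779. Without PMSG array 4 it was 0.94 (limma adjusted p = 0.00372), but 11382 of 25303 tested probes passed then, beside 8658 with all arrays. Per1 passed in 2 of the 18 alternative settings tried, and its highest limma adjusted p among them was 0.170.

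Per2, measured by 10 spots per array, read -1.47, -1.78, -1.60 and -1.83 in control arrays and -2.57, -1.62, -2.37 and -1.29 in arrays labelled PMSG. Of the arrays labelled PMSG, 1 and 3 lay under all control arrays, 4 lay above them and 2 lay among them. The difference was -0.29 (SE 0.28; 95% interval -0.94 to 0.35; limma adjusted p = 0.434). Among the 4 arrays labelled PMSG, 1 and 3 were the higher pair for Per1 and the lower pair for Per2.

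Per3 had 3 probes, of which 1 passed. That probe (A_64_P119405; rn4 chr5:168155353-168155412, - strand) read -4.51, -4.42, -4.42 and -4.51 in control arrays and -3.72, -4.01, -3.54 and -4.23 in arrays labelled PMSG. The groups did not overlap, and the difference was 0.59 (SE 0.15; limma adjusted p = 0.0186), or 1.51-fold. Quantile normalization and normexp each gave 0.37 (limma adjusted p = 0.0139 and 0.0353). The brightest probe (A_64_P119407; rn4 chr5:168152779-168152838) read -2.95, -2.83, -3.05 and -2.80 against -2.05, -2.45, -2.00 and -2.99. Its array 4 labelled PMSG lay among the controls, and the difference of 0.53 (SE 0.22) had a limma adjusted p of 0.0913. Without that array it was 0.74 (limma adjusted p = 0.00571). This probe passed in 2 of the 18 alternative settings, and its highest limma adjusted p among them was 0.472. The third probe (A_64_P127337), which ends at the transcript base before the brightest one starts, was dim, with processed signals of 17.3 to 29.4. It read -5.90, -5.74, -5.69 and -5.60 against -5.83, -5.49, -5.37 and -5.20, a difference of 0.26 (95% interval -0.08 to 0.60; limma adjusted p = 0.199). In this probe array 4 labelled PMSG was the highest of its group, whereas in the other two Per3 probes it was the lowest. The probe that passed and the dim one are shown, with TGA in capitals at the end of the latter.
Per3 A_64_P119405: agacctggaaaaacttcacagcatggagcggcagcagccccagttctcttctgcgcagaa
Per3 A_64_P127337: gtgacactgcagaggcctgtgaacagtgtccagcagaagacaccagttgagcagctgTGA

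The Cry genes encode the stronger inhibitors of the Arntl and Clock dimer, and neither passed. Cry1 was at 0.53, 0.50, 0.19 and 0.38 in control arrays and at 0.34, 0.40, 0.19 and 0.82 in arrays labelled PMSG. Of the arrays labelled PMSG, 1 and 2 lay within the control range, 3 was at its lower end and 4 was above it, and the difference was 0.04 (95% interval -0.31 to 0.39; limma adjusted p = 0.862). Cry2 was at -2.95, -3.30, -3.28 and -3.43 in control arrays and at -2.20, -2.77, -2.58 and -3.40 in arrays labelled PMSG. Arrays 1 to 3 labelled PMSG exceeded every control array and array 4 did not. The difference of 0.50 (SE 0.24, 95% interval -0.06 to 1.06) had a limma adjusted p of 0.148. Without array 4 labelled PMSG it was 0.72 (limma adjusted p = 0.0142). Cry2 passed in 2 of the 18 alternative settings, and its highest limma adjusted p among them was 0.319.

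The REV-ERB receptors join the loops by repressing Arntl. Nr1d1 read -3.97, -3.90, -3.99 and -3.75 in control arrays and -3.01, -4.17, -4.07 and -4.33 in arrays labelled PMSG. Array 1 labelled PMSG stood above all control arrays and the other three stood under them, so the means were the same at -3.90 (SD 0.11 and 0.60). The difference was 0.01 (95% interval -0.62 to 0.64; limma adjusted p = 0.983). Nr1d2 was dim, with processed signals of 17.4 to 65.5, and read -5.91, -5.38, -5.26 and -5.35 in control arrays and -4.84, -4.72, -4.91 and -4.05 in arrays labelled PMSG. There was no overlap, and its difference of 0.85 (SE 0.22; limma adjusted p = 0.0206), or 1.80-fold, was the largest of the 16 probes. This call was lost under quantile normalization (0.54; limma adjusted p = 0.222) and median centring (0.68; limma adjusted p = 0.0935), and normexp gave 0.52 (limma adjusted p = 0.0490).

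Dbp, a PAR bZIP factor that the Arntl and Clock dimer switches on through E-boxes and that carries the rhythm to D-box genes, was higher in the arrays labelled PMSG with all 3 probes. The brightest (A_64_P017188; rn4 chr1:96178423-96178482, + strand) read 2.06, 2.22, 2.23 and 2.35 in control arrays and 3.39, 2.77, 2.72 and 3.09 in arrays labelled PMSG. No PMSG-labelled array reached down to the controls, and the means were 2.22 ± 0.12 and 2.99 ± 0.31 (SD, n = 4 each). The difference was 0.78 (SE 0.16; limma adjusted p = 0.00727), or 1.71-fold. A second probe (A_64_P049827) read 1.02, 1.19, 1.12 and 1.24 against 2.11, 1.45, 1.41 and 1.78, a difference of 0.54 (SE 0.16; limma adjusted p = 0.0342). The third (A_64_P049828) read 0.02, 0.22, 0.09 and 0.18 against 1.13, 0.55, 0.35 and 0.89, a difference of 0.61 (SE 0.17; limma adjusted p = 0.0272). All 3 probes put the arrays labelled PMSG in the same order, with array 1 highest, then 4, 2 and 3. These last probes are shown because they measured the same change at neighbouring places of the transcript; TGA in capitals ends the former.
Dbp A_64_P049827: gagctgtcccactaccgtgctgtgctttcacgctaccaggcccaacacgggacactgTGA
Dbp A_64_P049828: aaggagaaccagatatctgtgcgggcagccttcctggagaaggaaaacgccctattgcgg

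Both Arntl probes and the brightest Dbp probe passed in each of the 18 alternative settings tried. Dbp A_64_P049827 and A_64_P049828 lost their calls with median centring (limma adjusted p = 0.161 and 0.136) and with replicate number as a block (limma adjusted p = 0.0693 and 0.0561). They also lost them without any 1 of the 4 control arrays or PMSG array 1, and A_64_P049827 did without PMSG array 4 (limma adjusted p = 0.0512 to 0.0866 over both probes), as did the Per3 probe without control array 4 (limma adjusted p = 0.0513) or PMSG array 1 (0.0512). Each row of the slide held 2 arrays of either label. As the groups did not overlap for the 7 called probes, their direction was bound to be the same in both rows. The difference of Nr1d2 was 0.55 in row 1 and 1.14 in row 2, and that of the brighter Arntl probe was -0.49 and -0.84. For Clock A_64_P075337, Cry1 and Nr1d1 the rows differed in sign.

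**Figure D2:**
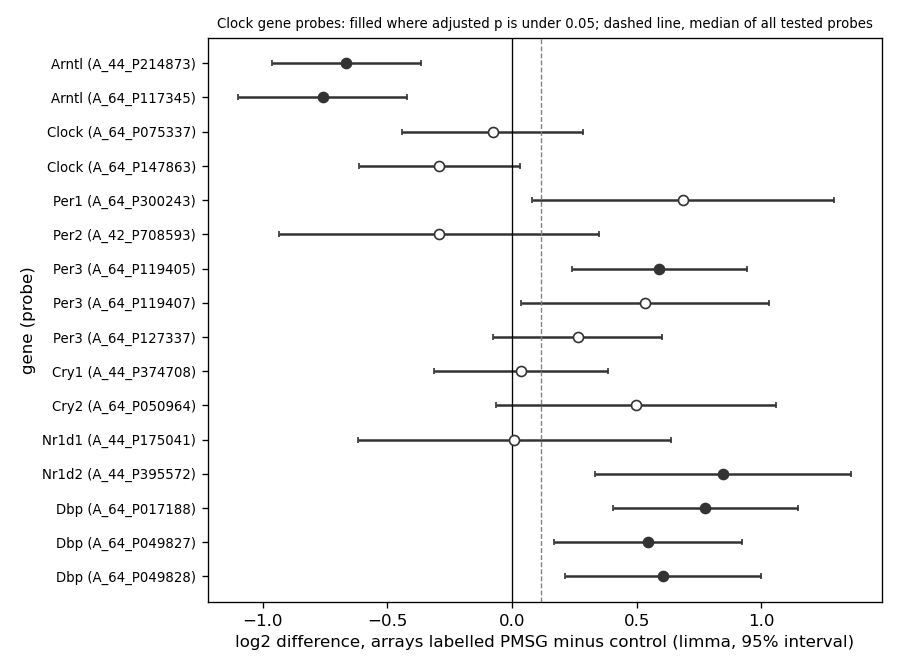
Log2 difference, arrays labelled PMSG minus arrays labelled control, of the 16 clock gene probes with limma's 95% interval; filled points passed at an adjusted p of 0.05. The intervals of both Arntl probes lie below 0, those of the Dbp and Nr1d2 probes lie above 0, and those of Cry1 and Nr1d1 are centred near 0.

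The arrays labelled PMSG were the more scattered for every clock gene probe. The SD was larger than among control arrays for 16 of 16 probes, beside 73.3% of all tested probes, and the median SD was 0.15 in control arrays and 0.32 in arrays labelled PMSG, beside 0.16 and 0.27 for all tested probes. The SD of Nr1d1 was 5.58 times as large in the arrays labelled PMSG, that of the Per3 probe that passed 5.95 times, and those of Per1 and Per2 3.69 and 3.64 times. Clock A_64_P147863 had nearly equal SDs, with a ratio of 1.09. Without PMSG array 4, the SD over the remaining arrays of that label was still larger than that over all control arrays for 13 of 16 probes. The share of all tested probes was 59.6%. Arntl, Clock, Per3 and Dbp each gave several of the 16 probes, so these are not separate genes.

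The scatter was not shared by all members in 1 direction. Array 4 labelled PMSG was the lowest of its group for 7 probes (both Clock probes, Per1, Cry2, Nr1d1 and 2 of Per3) and the highest for 6 (both Arntl probes, Per2, Cry1, Nr1d2 and the dim Per3 probe). Array 1 was the highest for all Dbp probes, Nr1d1 and Cry2 and the lowest for both Arntl probes, Per2 and the dim Per3 probe. Array 2 was at neither end for any of the 16. Limma's array weights gave array 4 labelled PMSG 0.279, beside 0.673 to 1.21 for the other three arrays of that label and 1.35 to 1.95 for the control arrays. The part of collection hour in these values was not tested.

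**Figure D3:**
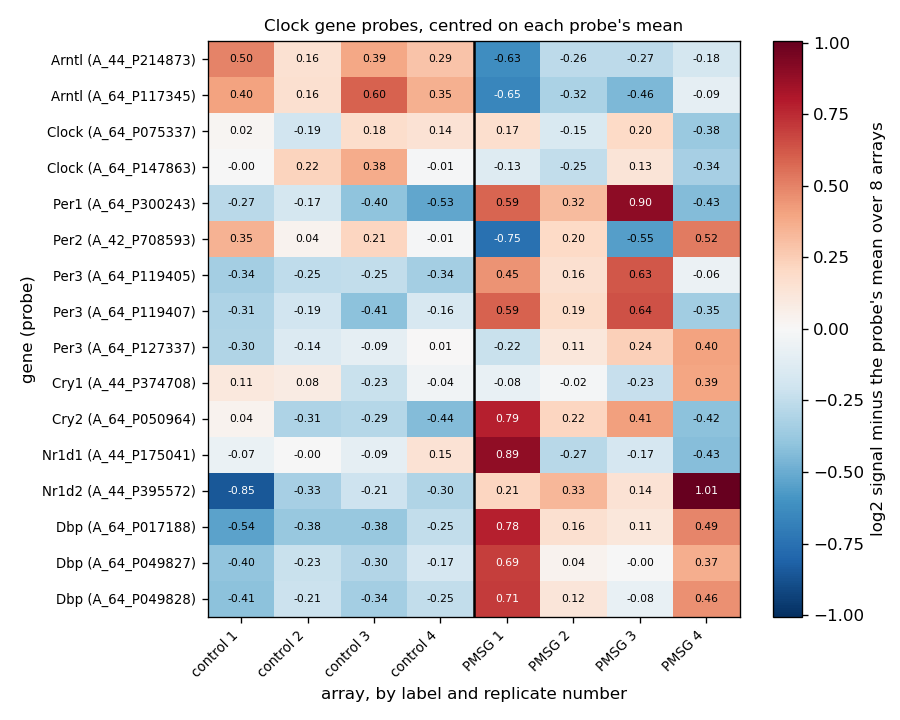
Each clock gene probe on each array, as log2 signal minus that probe's mean over the 8 arrays, coloured by sign and size. Columns are arrays and rows are probes; the arrays labelled PMSG differ among themselves, array 4 being low for Clock, Per1, Cry2 and Nr1d1.

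**Figure D4:**
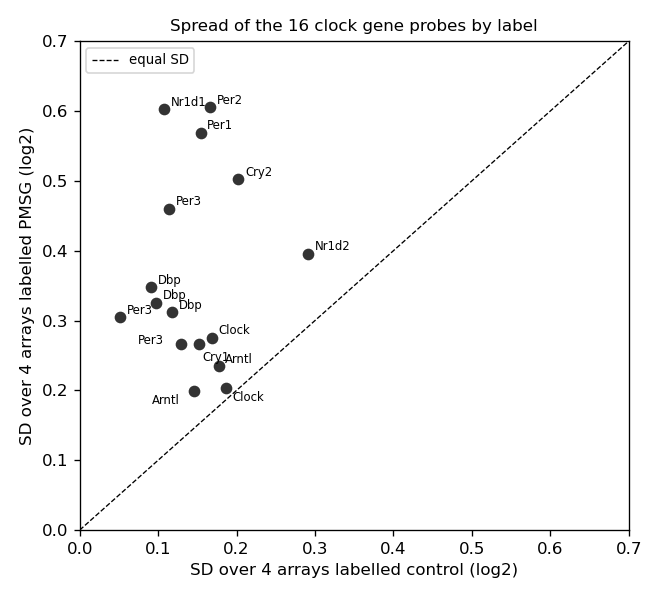
SD of each clock gene probe over the 4 arrays labelled PMSG (y axis, log2) against that over the 4 control arrays (x axis, log2), with the line of equal SD. All 16 points lie above the line, with Per1, Per2 and Nr1d1 the highest.

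The genes whose pattern over the 8 arrays was most like the 2 members with the largest difference in each direction were found by the root mean square distance after centring each probe. For Nr1d2 these were Slc24a3 (0.122), Bai2 (0.130) and Arl13b (0.157), beside a median of 0.626 over all tested probes. For Arntl A_64_P117345 they were Tax1bp3 (0.0791), Bcl3 (0.0841) and Ogfrl1 (0.0913), beside a median of 0.571. The distances were computed over the same 8 arrays and both labels, so a shared difference between labels counts toward them.

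A wider list held 36 other genes. From the clock network it took further regulators, D-box factors, kinases, phosphatases, ubiquitin ligases, a ubiquitin protease and known clock outputs. It also held 5 glucocorticoid-induced genes, which are not parts of the clock and were included since Per1 is such a target. Bhlhe41, Hlf and Fbxl21 were not analysed here, and Rorb was well above background on 0 of 8 arrays. By its brightest probe, 18 of the other 32 genes passed, 4 higher and 14 lower in the arrays labelled PMSG, beside 17.6% and 16.6% of all tested probes. The 5 glucocorticoid-induced genes gave 4 of the 18, 1 higher and 3 lower. The median difference of the 32 was -0.29, and with median centring 1 was called higher and 15 lower. In that setting 8448 of 25303 tested probes were called, 34.5% of them higher.

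Of 7 regulators tested, 3 passed and all 3 were lower, beside 34.2% of all tested probes called and 16.6% called lower. Rora, the nuclear receptor that activates Arntl through RORE sequences, read -3.83, -4.22, -3.78 and -3.47 in control arrays and -6.13, -5.94, -6.14 and -6.75 in arrays labelled PMSG. The groups did not overlap, with a difference of -2.41 (SE 0.21; limma adjusted p = 1.93e-04). With normexp it was -0.78 (limma adjusted p = 0.00142), so its size depended on the background correction. Npas2, which can replace Clock in the dimer, was at -1.27, -1.08, -1.22 and -1.09 against -2.71, -2.65, -2.52 and -2.40, also without overlap. Its difference was -1.41 (SE 0.10; limma adjusted p = 9.74e-05), but a dimmer Npas2 probe gave 0.14 (limma adjusted p = 0.618), so the 2 probes disagreed. Bhlhe40 (DEC1), a repressor that competes for E-boxes, differed by -0.95 (SE 0.26; limma adjusted p = 0.0236). That call was lost without control array 1, 3 or 4 or PMSG array 1 (limma adjusted p = 0.0510 to 0.0619) and with the replicate block (limma adjusted p = 0.0540). Arntl2, Ciart, Cipc and Timeless did not pass, with differences of 0.24, 0.23, -0.19 and 0.02.

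Tef, a PAR bZIP factor like Dbp, was at 0.27, 0.31, 0.38 and 0.55 in control arrays and at 0.84, 1.02, 0.64 and 1.54 in arrays labelled PMSG. It was higher on all 4, by 0.63 (SE 0.19; limma adjusted p = 0.0327). The call was lost with median centring (0.46; limma adjusted p = 0.194) and without any 1 control array or PMSG array 2 (limma adjusted p = 0.0511 to 0.0797). Nfil3, the repressor that competes with these factors at D-boxes, differed by -0.31 (limma adjusted p = 0.131). Of the wider list, only the promoters of Npas2, Rora, Tef, Bhlhe40 and Ciart were searched for the motifs. E-boxes were found 198 bases before the start of Tef, 220 before that of Bhlhe40 and 93, 35 and 21 before that of Ciart. None of the motifs was found for Npas2 or Rora. The windows of Tef and Bhlhe40 are shown because both genes have an E-box and passed in opposite directions.
Tef promoter, GRCr8 chr7:115206577-115206676, + strand: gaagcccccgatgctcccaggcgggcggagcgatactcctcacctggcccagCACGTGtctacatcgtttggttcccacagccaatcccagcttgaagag
Bhlhe40 promoter, GRCr8 chr4:143174200-143174299, + strand: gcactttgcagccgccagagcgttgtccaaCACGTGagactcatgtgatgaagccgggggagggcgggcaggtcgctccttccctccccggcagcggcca

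The next 9 genes encode kinases, phosphatases, ubiquitin ligases and a ubiquitin protease (Usp2) that set the stability of Per and Cry proteins. Of these 9, 4 passed, 1 higher and 3 lower, beside 34.2% of all tested probes called. Casein kinase Csnk1d was higher by 0.31 (limma adjusted p = 0.0235), while its other probe gave 0.08 (limma adjusted p = 0.669). Gsk3b differed by -0.63, Ppp1ca by -0.32 and Ppp2ca by -0.48 (limma adjusted p = 0.0212, 0.0284 and 0.0107). Csnk1d lost its call with median centring (0.14; limma adjusted p = 0.459) and without control array 1, 2 or 4 or PMSG array 1 (limma adjusted p = 0.0594 to 0.0701). Gsk3b lost it without control array 2 or 3 or PMSG array 1, 2 or 3 (limma adjusted p = 0.0505 to 0.0611). Ppp1ca lost it after quantile scaling (-0.22; limma adjusted p = 0.0826) and when control array 1, 2 or 4 or PMSG array 1 or 2 was left out (limma adjusted p = 0.0632 to 0.0805). With the replicate block Csnk1d, Gsk3b and Ppp1ca also lost their calls (limma adjusted p = 0.0814, 0.0513 and 0.0878). Csnk1e, Csnk1a1, Btrc, Fbxw11 and Usp2 did not pass, with differences of 0.21, -0.16, -0.11, 0.18 and 0.14.

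Of 9 known outputs, 6 passed, 1 higher and 5 lower, beside 17.6% of all tested probes called higher and 16.6% lower. Nampt, the rate-limiting enzyme of NAD salvage, differed by -0.75 (limma adjusted p = 0.0190), and without control array 4 by -0.71 (limma adjusted p = 0.0542). Por, which passes electrons to cytochrome P450 enzymes, differed by -0.93 (limma adjusted p = 5.79e-04), and Hsd11b1, which regenerates active glucocorticoid, by -2.67 (limma adjusted p = 1.69e-05). Tspan4 was the output that was higher, by 0.46 (limma adjusted p = 0.00721), and with median centring by 0.29 (limma adjusted p = 0.110). Lonrf3 differed by -1.02 and the tRNA synthetase gene Tars by -0.69 (limma adjusted p = 0.00242 and 9.97e-04). Alas1, the first enzyme of haem synthesis, differed by -0.97 (SE 0.37; limma adjusted p = 0.0765; -1.34 and 0.00530 without PMSG array 2), Wee1 by 0.09 and Marveld1 by 0.11, and none of these 3 passed.

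**Figure D5:**
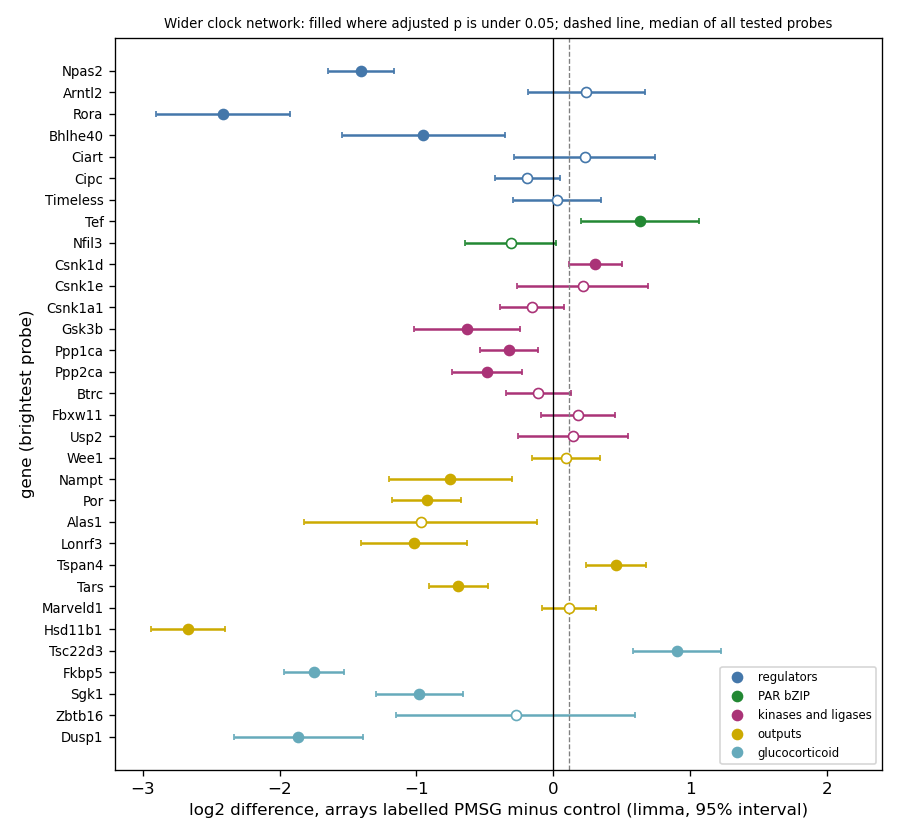
Log2 difference, arrays labelled PMSG minus arrays labelled control, of the 32 tested genes of the wider list (brightest probe) with limma's 95% interval. Points are coloured by the group of genes, among them the glucocorticoid-induced genes. Filled points passed at an adjusted p of 0.05 and the dashed line is the median of all tested probes. Rora and Hsd11b1 lie farthest to the left, and Tef, Csnk1d, Tspan4 and Tsc22d3 are the genes that were higher.

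Markers of the cell types in the ovary and its surroundings also differed between the labels. The counts below stand beside 34.2% of all tested probes called, 17.6% higher and 16.6% lower, and each list is short. The defining ovarian markers were well above background on every array. Theca and luteal markers summed to 150.4 to 174.0 times the array's 75th percentile in control arrays and 30.7 to 70.8 in arrays labelled PMSG. Of the 5, 4 passed, and the 3 lower were Star, Cyp11a1 and Lhcgr. Cyp11a1 was the brightest in control arrays (mean 6.59), so it weighs most in their sums. Insl3 was higher by 2.60 (limma adjusted p = 3.47e-04), and Cyp17a1 did not pass (-0.22, limma adjusted p = 0.483). Granulosa markers summed to 68.6 to 106.1 and 64.3 to 85.6, with 1 of 5 passing, higher. That was Amh, by 3.03. Inha was the brightest of them (mean 6.40 in control arrays) and weighs most in the sums, and it did not pass (-0.39, limma adjusted p = 0.0921). Fshr, Foxl2 and Nr5a1 did not pass either. Oocyte markers were all 5 higher (2.73 to 4.89 against 9.19 to 20.8), as were all 5 oviduct and surface epithelium markers (13.3 to 18.2 against 25.7 to 37.8) and all 4 leukocyte markers (6.72 to 8.36 against 10.8 to 12.1). In the control arrays the epithelial markers Muc1 and Dnah5 were well above background on 3 of 4 and 2 of 4. Endothelial markers had 2 of 4 lower (3.36 to 4.30 against 2.65 to 3.41), smooth muscle and fibroblast markers 2 of 4 higher (24.4 to 39.1 against 32.4 to 55.3), and red cell markers 1 of 3 lower (4.80 to 13.8 against 2.12 to 3.57). Adipocyte markers had 0 of 3 passing by limma (3.58 to 18.6 against 8.15 to 18.8). The part of these cell types in the differences of Arntl, Dbp, Nr1d2 and Per3 was not tested.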

How the data were processed

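Spot intensity was extracted by the authors with Agilent Feature Extraction 11.5.1.1, per the file headers. From 500 ng of total RNA, Cy3-labelled cRNA was made with an oligo-dT primer, per the labels' protocols. A deposited log2 table of the same arrays, in which each column matched its own array best, served as an alternative. Processed signals were averaged over the usable spots of each 60-base probe, put on the log2 scale and lowered by the array's 75th percentile. A probe was tested where at least 0.5 of its spots were well above background on at least 4 of 8 arrays. The 4 arrays of each label, taken from the titles, were compared in limma 3.58.1 (R 4.3.3) without covariates, with Benjamini-Hochberg adjustment over 25303 probes; the code was tested on simulated data. A gene's brightest probe stood for it in the wider list. All member probes, all tested genes of the wider list apart from a few not reported here, and the 3 genes most like 2 members were named. Members and lists were chosen with earlier results of these data known. Probe coordinates are the array files' own (rn4), and promoter sequences are from RefSeq (GRCr8). Alternatives changed the scaling, background correction, filter, weights, blocks and each array in turn.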

Additional observations from a re-analysis of the deposited data

Results flagged for a closer look

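In 3 of 96 groups of 4 arrays examined among the clock genes and the wider list, 1 array stood apart from the others, where about 1 in 20 groups does so by chance; none was a member probe. Bhlhe40 read -1.88 in control array 2 and -1.59 to -1.54 in the other control arrays, a gap of 0.854 of the group's range. Por read 1.67 in control array 1 and 1.77 to 1.78 in the others, a gap of 0.901. Dusp1 read -2.94 in control array 2 and -2.50 to -2.42 in the others, a gap of 0.836. Without control array 2 Bhlhe40 differed by -1.02 (limma adjusted p = 0.0389; 0.0510 to 0.0619 without control array 1, 3 or 4 or PMSG array 1) and Dusp1 by -1.98 (limma adjusted p = 0.00120), and without control array 1 Por differed by -0.95 (limma adjusted p = 0.00248).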

How the results depend on the processing

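With 1 array left out at a time, 4 to 9 clock probes were called, beside 6552 to 11382 of all 25303 tested probes. The count was 4 without control array 4 or PMSG array 1, where 6552 and 7120 of all tested probes were called. It was 9 without PMSG array 4, where 11382 were. Signs turned, at values that missed the threshold, as follows, and the cause was not tested. Under quantile normalization Per3 A_64_P127337 was -0.061, Nr1d1 -0.19 and Ciart -0.060. With median centring Nr1d1 was -0.16, Cry1 -0.13, Timeless -0.14, Usp2 -0.027, Wee1 -0.074 and Marveld1 -0.056. With array weights Cry1 was -0.043 and Clock A_64_P075337 0.020, and with normexp that Clock probe was 0.049 and Zbtb16 0.047. Leaving out 1 array gave -0.16 to 0.035 for that Clock probe, -0.088 to 0.12 for Cry1, -0.29 to 0.15 for Nr1d1, -0.066 to 0.12 for Timeless and -0.47 to 0.12 for Zbtb16. All other differences of the clock probes and the wider list kept their sign in the 18 settings. Replicate numbers did not pair the arrays: same-numbered arrays had residual correlations of 0.0444, 0.0361, 0.183 and -0.0192, and 3 of 8 arrays correlated best with their own number. With the replicate block 5 clock probes, 14 genes of the wider list and 7346 of all tested probes were called. The counts of the wider list and of all tested probes stayed within 1.5 times in the 18 settings.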

Other observations

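Genes that glucocorticoid induces, several of which also follow the daily rhythm of that hormone, were measured beside the clock. Of 5 tested, 4 passed, 1 higher and 3 lower in the arrays labelled PMSG, beside 17.6% of all tested probes called higher and 16.6% lower. Fkbp5, a co-chaperone of the glucocorticoid receptor, read 3.42, 3.24, 3.35 and 3.44 in control arrays and 1.73, 1.65, 1.56 and 1.49 in arrays labelled PMSG, a difference of -1.75 (limma adjusted p = 3.31e-05). Sgk1, a kinase that acts on ion transport, differed by -0.98 (limma adjusted p = 0.00126), and Dusp1, a phosphatase of MAP kinases, by -1.86 (limma adjusted p = 4.40e-04), or by -1.05 with normexp (limma adjusted p = 2.38e-04). Tsc22d3 (GILZ), also a glucocorticoid target, ran the other way, at 2.09, 2.06, 2.42 and 1.80 against 2.88, 3.14, 2.99 and 2.97, a difference of 0.90 (limma adjusted p = 0.00189). Zbtb16 differed by -0.28 (limma adjusted p = 0.590).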
